A study of Mus musculus with 4 samples.

Results

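Most genes of the machinery that moves proteins into and out of the endoplasmic reticulum (ER) stood lower in regenerating livers of mice given an siRNA against Orm1 than in livers of mice given a control siRNA. Of the 51 genes measured, 49 had a negative difference and in 39 (76.5%) each siOrm array lay below each siControl array, against 15.3% of all 10923 genes. Such genes are called separated downwards here. The reverse separation was seen for 1 gene (1.96%), against 17.0% of all genes. The differences were small, with a median of -0.27 on the log2 scale and a range from -0.65 for Rpn1 to 0.10 for Derl2, and no single gene passed the test over all genes.

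The set was taken from a list of 53 genes that carry out signal peptide recognition, translocation, N-glycosylation, folding, ER-associated degradation (ERAD) and export. A gene was included through every probe set that the platform annotation gives to its symbol alone, and its value was the mean of those probe sets. This gave 106 probe sets for 51 of the 53 genes. Srp72 had no such probe set, and the probe set of Sec61g carries other symbols as well, so both were left out. Of the 51 genes, 24 rested on 1 probe set and 27 on several, and in 21 of these 27 all probe sets differed in the same direction.

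Proteins that leave the hepatocyte, such as albumin and the acute phase proteins, enter the ER while they are being made. The signal recognition particle brings the ribosome to the membrane, the Sec61 channel lets the chain through, signal peptidase removes its leader, and oligosaccharyltransferase attaches N-glycans. Calnexin, calreticulin and the disulfide isomerases then fold the chain, ERAD returns failed products to the cytosol, and COPII vesicles carry finished ones to the Golgi. Many of these genes are known targets of the unfolded protein response, through the transcription factors ATF6 and XBP1.

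The siOrm group was 2 arrays from livers of mice that received siRNA against Orm1, and the siControl group was 2 arrays from mice that received a control siRNA. All mice were male C57BL6/J aged 6 to 13 weeks. They had 1 injection of siRNA in a lipid carrier, lost 40% of the liver 3 days later, and gave liver RNA 48 hours after that partial hepatectomy. Values are given as log2 signal with the 4-array median of each probe set set to 0, and a difference is the siOrm mean minus the siControl mean of such values. Which logarithm was used is unstated, and base 2 was assumed.

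The labels do not say whether each array was hybridised with RNA of 1 mouse or of several; the p-values therefore cover the spread between these arrays alone, and that spread may be technical. The siOrm titles, siOrm1 and siOrm2, could also name siRNAs against Orm1 and Orm2, while the source names and descriptions place both in 1 group. Orm1 itself stood at -0.24 and -0.02 on the siOrm arrays and at 0.02 and 0.19 on the siControl arrays, a difference of -0.23 (SE 0.15, limma adjusted p = 0.994), so the labels are checked only weakly by the named target. Its paralogs were separated downwards too, Orm2 by -1.08 (SE 0.34) and Orm3 by -0.91 (SE 0.34), and neither passed the adjusted test (limma adjusted p = 0.994 for both). The siControl arrays differed from each other more (SD over all genes 0.38) than the siOrm arrays did (0.25). The centring removes signal levels, so the tissue could not be checked from its markers. Over 13 measured macrophage markers the median was -0.01 and 0.03 on the siOrm arrays and -0.22 and 0.58 on the siControl arrays, and 1 of the 13 was separated in the same way as the 39 genes.

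Promoters are shown first for the genes that carry a known response element of ATF6 or XBP1. These elements were searched on both strands in the 300 bases around the start of each gene (RefSeq, GRCm38.p6), a window that was found for 42 of the 53 listed genes, with 49 start sites. The ER stress response element (ERSE) was CCAAT, 9 of any base, then CCACG, and ERSE-II was ATTGG, 1 of any base, then CCACG. The unfolded protein response element (UPRE) was TGACGTGG or TGACGTGA. The ERSE and ERSE-II both end in CCACG, and the first UPRE form holds the same letters on its other strand. An ERSE was found for Syvn1, Calr and Canx, and a UPRE for Sec24d, Txndc5, Vcp and Kdelr3. Each promoter printed here reads 5′ to 3′ in the direction of its gene, with the matched element in capitals; the 3 with an ERSE come first and then the 3 with a UPRE whose genes differed most.
Syvn1 promoter (chr19:6046326-6046625, plus strand): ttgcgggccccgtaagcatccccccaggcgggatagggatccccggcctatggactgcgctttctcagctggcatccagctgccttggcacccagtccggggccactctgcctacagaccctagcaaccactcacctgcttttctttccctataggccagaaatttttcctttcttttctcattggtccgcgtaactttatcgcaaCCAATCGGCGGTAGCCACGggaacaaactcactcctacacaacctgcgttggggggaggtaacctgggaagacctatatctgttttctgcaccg
Calr promoter (chr8:84846882-84847181, minus strand): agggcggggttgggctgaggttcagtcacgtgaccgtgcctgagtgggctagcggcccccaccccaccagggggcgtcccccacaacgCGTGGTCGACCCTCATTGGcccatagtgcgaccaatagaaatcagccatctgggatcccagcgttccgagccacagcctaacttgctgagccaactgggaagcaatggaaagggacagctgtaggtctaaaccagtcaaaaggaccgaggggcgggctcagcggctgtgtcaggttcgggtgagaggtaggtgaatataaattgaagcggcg
Canx promoter (chr11:50325624-50325923, minus strand): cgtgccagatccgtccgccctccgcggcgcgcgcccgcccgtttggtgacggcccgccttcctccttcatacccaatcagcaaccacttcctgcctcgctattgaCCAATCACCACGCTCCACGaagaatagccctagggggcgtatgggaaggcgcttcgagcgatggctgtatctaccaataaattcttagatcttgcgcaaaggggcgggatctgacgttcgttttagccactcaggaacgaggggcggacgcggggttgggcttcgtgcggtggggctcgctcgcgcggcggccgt
Sec24d promoter (chr3:123267246-123267545, plus strand): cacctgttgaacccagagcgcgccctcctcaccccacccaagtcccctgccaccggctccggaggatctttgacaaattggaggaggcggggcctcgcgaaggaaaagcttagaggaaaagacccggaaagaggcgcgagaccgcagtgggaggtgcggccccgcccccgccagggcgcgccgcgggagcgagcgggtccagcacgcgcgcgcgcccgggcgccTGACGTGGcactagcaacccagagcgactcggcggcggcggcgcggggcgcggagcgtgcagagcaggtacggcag
Txndc5 promoter (chr13:38527865-38528164, minus strand): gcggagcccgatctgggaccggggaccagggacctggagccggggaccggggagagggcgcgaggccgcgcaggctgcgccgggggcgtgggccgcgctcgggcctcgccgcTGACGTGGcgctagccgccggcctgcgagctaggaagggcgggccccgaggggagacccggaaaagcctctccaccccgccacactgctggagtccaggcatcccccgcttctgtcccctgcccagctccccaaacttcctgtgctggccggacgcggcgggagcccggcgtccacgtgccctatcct
Vcp promoter (chr4:43000458-43000757, minus strand): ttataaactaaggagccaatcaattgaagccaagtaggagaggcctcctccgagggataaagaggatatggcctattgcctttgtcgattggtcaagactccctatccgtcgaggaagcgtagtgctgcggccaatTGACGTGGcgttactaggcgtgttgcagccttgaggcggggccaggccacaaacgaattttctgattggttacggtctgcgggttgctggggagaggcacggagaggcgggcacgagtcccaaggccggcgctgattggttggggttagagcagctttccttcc

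The ERSE lay 44 to 26 bases before the start in Syvn1, 162 to 144 before it in Calr, where it reads on the opposite strand, and 145 to 127 before it in Canx. The UPRE lay 114 to 107 bases before the start in Vcp. In Sec24d it lay 26 to 19 bases before a start inside the gene, whose annotated span begins at base 123264801 of the same chromosome. In Txndc5 it lay 138 to 131 bases before the farthest downstream of 3 annotated starts. An ERSE was present in 6.12% of the 49 promoters of the listed genes and in 0.119% of all 32851 promoters. For a UPRE the shares were 8.16% and 1.12%. No ERSE-II was found in the 49, against 0.0365% of all promoters. The short core CCACG alone was in 69.4% of the 49 and 32.8% of all promoters. The 49 include promoters of Srp72 and Sec61g, which were not measured. These shares are descriptions of letters in a window, not of binding.

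**Figure D1:**
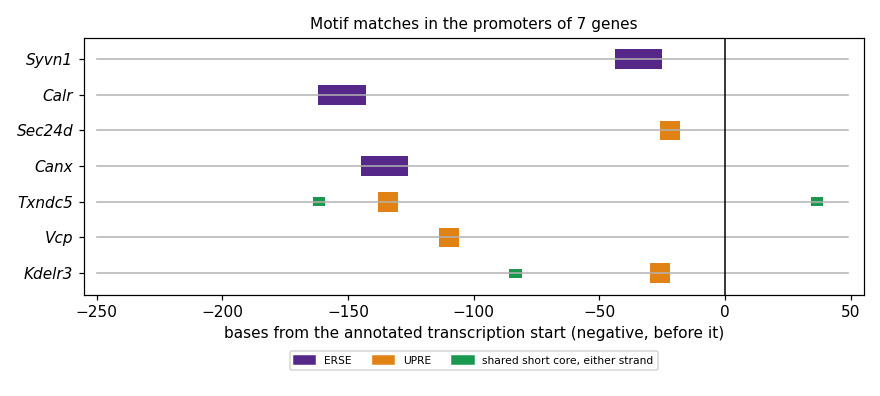
Motif matches in the promoters of the 7 genes with an ERSE or a UPRE, by distance in bases from the annotated start, ordered by their difference between siOrm and siControl livers. Purple boxes are ERSE matches, orange boxes UPRE matches and small green boxes the core CCACG on either strand; the ERSE lies within 50 bases of the start in Syvn1 and farther upstream in Calr and Canx.

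Of the genes with an ERSE, Syvn1 and Calr were among the lowest of the set, while Canx was near its median. They differed by -0.63 for Syvn1, -0.57 for Calr and -0.31 for Canx, and in all 3 each siOrm array lay below each siControl array. The 4 genes with a UPRE had a median difference of -0.26, close to the -0.26 of the 36 measured genes that had a promoter but no UPRE. With any of these elements 6 of 7 genes were separated downwards, and without one 26 of 33. Outside the set, 14 measured genes had an ERSE, and 7 of them (50%) were separated downwards and 0 upwards, with a median difference of -0.21. These 7 were Creld2, Hsp90b1, Hspa5, Pdia6, Derl3, Dnajc3 and Alg12, all of which encode ER proteins. All 7 also belong to the other secretory pathway lists given below, which were chosen with earlier results of these data known. The 50% is therefore not independent of those lists. The groups overlapped for Acnat2, Zfp57, Ptgdr2, Pan2, Adcy3 and Acacb, the ERSE genes outside the set and those lists. Of the 8713 measured genes outside the set with a promoter but no ERSE, 15.6% were separated downwards.

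The question of the comparison was which genes depend on Orm1 in the regenerating liver. By limma with Benjamini-Hochberg adjustment over all 10923 genes, 0 genes passed an adjusted p of 0.05 in either direction (0%), and so 0 of the 51 did. The smallest adjusted p in the set was 0.960, for Syvn1, and 0 of the 51 passed with a variance prior that follows the mean or with a robust prior. The mean of centred values is no signal level, so the prior that follows it is a weak check. At an unadjusted p under 0.05, 11 of the 51 (21.6%) were lower and 0 higher, where 2.58% of all genes were lower and 2.18% higher. The genes were chosen with results of these data known and vary together, so no test of the set was made. In whole liver a change in the share of a cell type and a change of RNA per cell cannot be told apart from the values of these genes alone. The hepatocyte markers measured beside them had a median difference of 0.04, with 10 of 14 higher in siOrm livers, against 5704 of all 10923 genes. Of the 14, 1 was separated downwards (Tat, at -0.44) and 4 upwards. The share of hepatocytes was not tested.

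**Figure D2:**
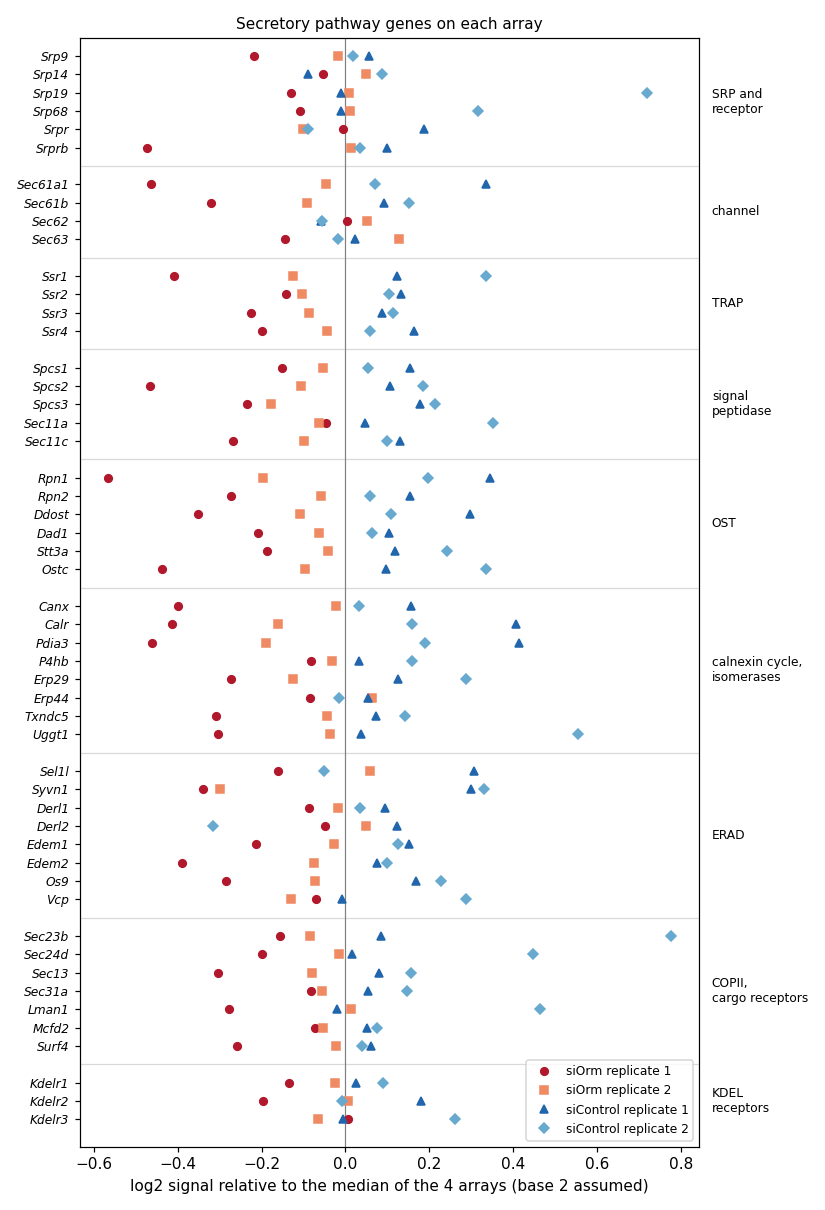
Value of each of the 51 genes on each of the 4 arrays, by step of the pathway, as log2 signal with the 4-array median set to 0. Red and orange marks are the 2 siOrm arrays and blue marks the 2 siControl arrays; siOrm replicate 1 is the lowest of the 4 for 44 genes, and siOrm replicate 2 mostly lies between it and the siControl arrays.

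The 2 siOrm arrays were not alike in size. Of the 51 genes, 44 (86.3%) were lowest on siOrm replicate 1, against 28.4% of all genes, and 47 were lower on siOrm replicate 1 than on siOrm replicate 2. The median gap between siOrm replicate 1 and siOrm replicate 2 was -0.17, close to the median gap of -0.17 between siOrm replicate 2 and siControl replicate 1. Even so, siOrm replicate 2 was lower than siControl replicate 1 for 44 of the 51 genes and lower than siControl replicate 2 for 45, while 51.1% and 43.0% of all genes were. For siOrm replicate 1 both counts were 48 of 51, against 53.7% and 46.1% of all genes. The siControl arrays had a median gap of -0.02 for replicate 1 minus replicate 2, with 28 of 51 genes lower on replicate 1. Single genes lay far apart in both directions, since the SD over the 51 genes of that gap was 0.24, against 0.13 between the siOrm arrays.

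Leaving out any 1 array kept the direction of the set. Its median difference was -0.19 without siOrm replicate 1, -0.37 without siOrm replicate 2, -0.29 without siControl replicate 1 and -0.25 without siControl replicate 2, while the median of all genes stayed between -0.01 and 0.04. The number of genes with the remaining siOrm arrays below the remaining siControl arrays was 41 of 51 without siOrm replicate 1, against 23.5% of all genes. It was 46 without siOrm replicate 2 (32.4% of all genes), 44 without siControl replicate 1 (33.8%) and 43 without siControl replicate 2 (36.8%). In the reverse direction the counts were 3, 1, 2 and 2 of 51 in the same order, against 29.2%, 32.4%, 44.6% and 31.6% of all genes.

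The genes of the signal recognition particle and its receptor mostly overlapped between the groups. Of 6 genes, 2 were separated downwards, and the median difference was -0.18. Srp9, a subunit that holds back elongation, and Srprb, the membrane-anchored receptor subunit, were the separated ones, at -0.15 and -0.30. Srp14, the partner of Srp9, stood at -0.05 and 0.05 on the siOrm arrays and at -0.09 and 0.09 on the siControl arrays, which is no difference beyond the spread. Srp19, which helps assemble the particle, stood at -0.13 and 0.01 on the siOrm arrays and at -0.01 and 0.72 on the siControl arrays. The groups overlapped, and only siControl replicate 2 stood high. Its difference of -0.42 (SE 0.25, limma adjusted p = 0.994) was -0.05 without siControl replicate 2 and -0.78 without siControl replicate 1. Srp68 differed by -0.20 with the same single high array, at 0.32, and Srpr, the receptor's other subunit, by -0.10 with overlapping groups.

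In the translocation channel the pore genes Sec61a1 and Sec61b stood lower in siOrm livers, and the accessory genes Sec62 and Sec63 did not. Sec61a1, which forms the pore, stood at -0.46 and -0.05 on the siOrm arrays and at 0.34 and 0.07 on the siControl arrays. In the mean of the probe sets both siOrm arrays were lower, mainly siOrm replicate 1, and the 6 probe sets gave differences from -0.57 to -0.30. On the probe sets with the largest differences, -0.57 and -0.56, siOrm replicate 2 stood at 0.04 and 0.06. There siControl replicate 2 was lower, at -0.04 and -0.06, while on the others siOrm replicate 2 lay below both siControl arrays. The mean difference was -0.46 (SE 0.19, limma adjusted p = 0.994), or -0.25 without siOrm replicate 1. Sec61b, a small subunit of the channel, was lower by a similar amount, at -0.33. Sec62 and Sec63, which serve chains that enter after or without the particle, stood at 0.09 and -0.01. Sec62 was the single gene of the set with both siOrm arrays above both siControl arrays, and all 4 of its probe sets gave a positive difference of at most 0.13. Whether the core and accessory subunits differ from each other was not tested.

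In the 3 complexes that sit beside the channel, every measured gene of the set was separated downwards. This held for 4 genes of the translocon-associated TRAP complex, 5 of signal peptidase and 6 of oligosaccharyltransferase, with median differences of -0.25, -0.30 and -0.36. Further subunits of oligosaccharyltransferase, such as Krtcap2 and Tusc3, were counted in another list, and the groups overlapped for Tusc3.

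In the TRAP complex, which assists the entry of some chains, Ssr1 stood at -0.41 and -0.12 on the siOrm arrays and at 0.12 and 0.34 on the siControl arrays. The groups did not overlap and each array stood apart from the next. Its 3 probe sets gave -0.65 to -0.42, and the difference was -0.50 (SE 0.16, limma adjusted p = 0.994). Ssr2, Ssr3 and Ssr4 lay close together, at -0.24, -0.26 and -0.23. The Ssr4 value is a mean of probe sets at -0.43, -0.19 and -0.08. On the probe sets at -0.19 and -0.08 the groups overlapped, with siOrm replicate 2 above siControl replicate 2.

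Signal peptidase cuts the leader from the growing chain. Its subunit Spcs3 was the most even gene of this complex, at -0.23 and -0.18 on the siOrm arrays and 0.18 and 0.21 on the siControl arrays. The spread within each group was far smaller than the gap between groups, and the difference was -0.40 (SE 0.13, limma adjusted p = 0.994). Spcs2, an accessory subunit, stood at -0.47 and -0.11 on the siOrm arrays and at 0.11 and 0.18 on the siControl arrays. Here siOrm replicate 1 stood low by itself, and the difference of -0.43 (SE 0.17) was -0.25 without it. The catalytic subunits Sec11a and Sec11c differed by -0.25 and -0.30, and Spcs1 by -0.21.

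Oligosaccharyltransferase transfers the glycan to asparagine. Rpn1, the ribophorin that presents chains to the enzyme, had the lowest difference of the set. It stood at -0.57 and -0.20 on the siOrm arrays and at 0.34 and 0.20 on the siControl arrays, with 5 probe sets between -0.70 and -0.58. The groups were clearly apart on every probe set, and the mean difference was -0.65 (SE 0.17, limma adjusted p = 0.994). All 5 probe sets are of the kinds that can share sequence with other transcripts. Ddost, a subunit of the same enzyme, stood at -0.35 and -0.11 on the siOrm arrays and at 0.30 and 0.11 on the siControl arrays, a difference of -0.43 (SE 0.15). Ostc, a subunit that links the enzyme to the channel, stood at -0.44 and -0.10 on the siOrm arrays and at 0.10 and 0.34 on the siControl arrays. Its difference of -0.48 (SE 0.18) was -0.31 without siOrm replicate 1. The catalytic subunit Stt3a differed by -0.29, and Rpn2 and Dad1 by -0.27 and -0.22.

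Among the calnexin cycle and disulfide isomerase genes, 7 of 8 were separated downwards, with a median difference of -0.36. Calreticulin, encoded by Calr, holds glycoproteins during folding. It stood at -0.41 and -0.16 on the siOrm arrays and at 0.41 and 0.16 on the siControl arrays, with 3 probe sets from -0.61 to -0.54. Pdia3, the disulfide isomerase that works with calreticulin and calnexin, had nearly the same values, at -0.46 and -0.19 on the siOrm arrays and 0.41 and 0.19 on the siControl arrays. In both genes siControl replicate 1 was the highest array and siOrm replicate 1 the lowest. The differences were -0.57 (SE 0.16) for Calr and -0.63 (SE 0.16) for Pdia3 (limma adjusted p = 0.994 for both). Erp29, an ER protein of the thioredoxin fold family, stood at -0.27 and -0.13 on the siOrm arrays and at 0.13 and 0.29 on the siControl arrays. Its groups did not overlap, and the difference was -0.41 (SE 0.14).

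Canx, encoding calnexin, the membrane-bound partner of calreticulin, differed by -0.31, and Txndc5, a disulfide isomerase, by -0.28. Uggt1, which marks misfolded glycoproteins for another round, differed by -0.47 with siControl replicate 2 high at 0.55. P4hb, the classical protein disulfide isomerase, differed by -0.15. Erp44, which retrieves clients from the early Golgi, was the exception, at -0.03 with overlapping groups.

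**Figure D3:**
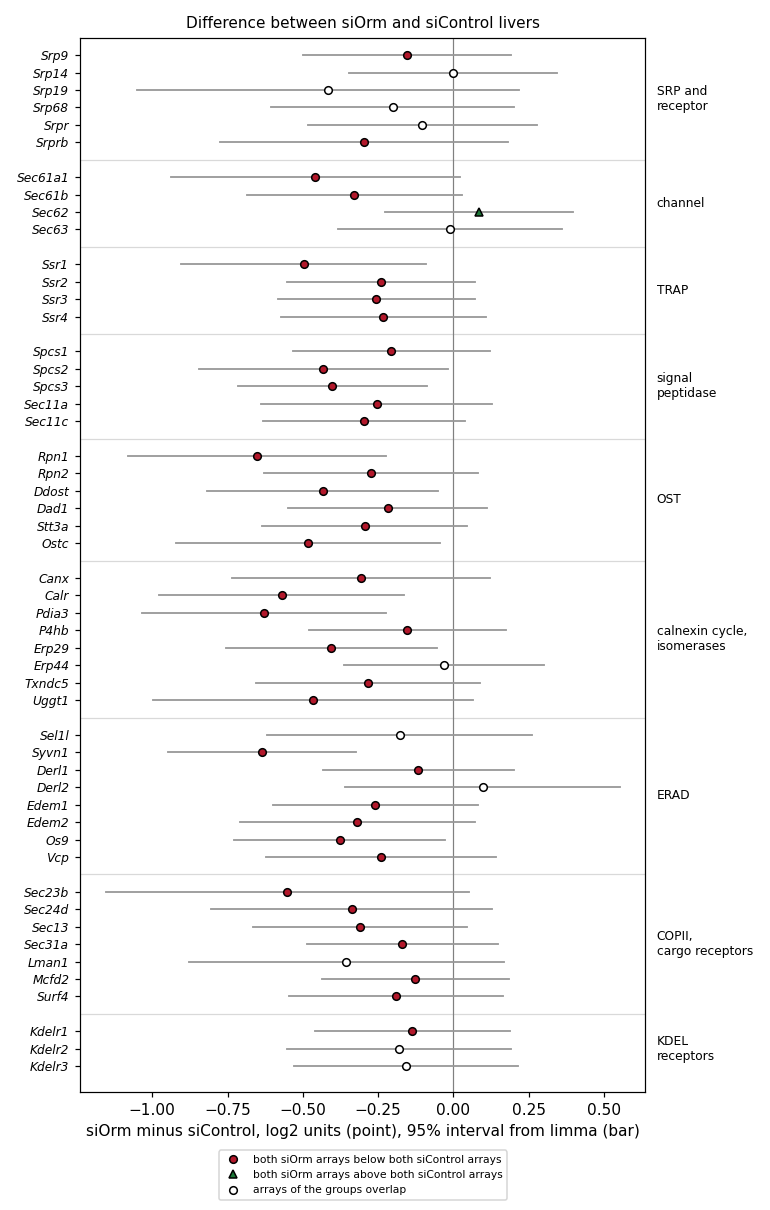
Difference, siOrm minus siControl, of each of the 51 genes in log2 units, by step of the pathway, with the 95% interval from limma. Filled red circles are the 39 genes separated downwards, with each siOrm array below each siControl array, the green triangle is Sec62 with the reverse order, and open circles are the 11 genes whose groups overlapped; the points run from -0.65 to 0.10.

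Of the 8 ERAD genes, 6 were separated downwards and the median difference was -0.25. Syvn1, the ubiquitin ligase HRD1 at the centre of this route, had the smallest p of the set. On its only probe set it stood at -0.34 and -0.30 on the siOrm arrays and at 0.30 and 0.33 on the siControl arrays. Each group was tight and the groups lay far apart, but no further probe set was there to compare. Its difference was -0.63 (SE 0.13, 95% interval from -0.95 to -0.32, limma adjusted p = 0.960), and it stayed between -0.65 and -0.61 whichever array was left out. Sel1l, the adaptor of that ligase, differed less, by -0.18, and its groups overlapped. Of its 4 probe sets, 3 were lower in siOrm livers and 1 higher, with differences from -0.31 to 0.03.

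Os9, a lectin that brings glycoproteins to the ligase, stood at -0.29 and -0.07 on the siOrm arrays and at 0.17 and 0.23 on the siControl arrays, a difference of -0.38 (SE 0.14). That mean hides a disagreement, since 1 of its probe sets gave -0.76 and the other 0.01. Edem1 and Edem2, which trim mannose from failing glycoproteins, differed by -0.26 and -0.32. Vcp, the ATPase that pulls clients from the membrane, differed by -0.24. The derlins, which form the exit path, were at -0.12 for Derl1 and 0.10 for Derl2, and the groups overlapped for Derl2.

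In the COPII coat and its cargo receptors, 6 of 7 genes were separated downwards, with a median difference of -0.31. Sec23b, a subunit of the inner coat, stood at -0.16 and -0.09 on the siOrm arrays and at 0.09 and 0.78 on the siControl arrays. The groups did not overlap, but siControl replicate 2 stood far above the rest. The difference of -0.55 (SE 0.24, limma adjusted p = 0.994) was -0.21 without siControl replicate 2. Without siControl replicate 1 it was -0.90 (limma adjusted p = 0.0454), the single call of the set in any setting, in a fit where siControl replicate 2 alone stood for its group and 183 of all genes were called lower and 46 higher. Sec24d, its partner in the inner coat, had the same high array, at 0.45, and differed by -0.34. The outer coat genes Sec13 and Sec31a differed by -0.31 and -0.17.

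The cargo receptor Lman1 differed by -0.36 with overlapping groups and siControl replicate 2 at 0.46, and its 4 probe sets ranged from -1.03 to -0.10. Its partner Mcfd2 differed by -0.13, and Surf4, another cargo receptor, by -0.19. The 3 KDEL receptors, which return escaped ER proteins from the Golgi, differed by -0.14 for Kdelr1, -0.18 for Kdelr2 and -0.16 for Kdelr3, and 1 of the 3, Kdelr1, was separated. Kdelr2 stood at -0.20 and 0.01 on the siOrm arrays and at 0.18 and -0.01 on the siControl arrays. Its difference (SE 0.15) was -0.08 without siOrm replicate 1, -0.28 without siOrm replicate 2, -0.09 without siControl replicate 1 and -0.27 without siControl replicate 2, so no direction beyond the spread was seen.

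The array with the highest value split the set. It was siControl replicate 2 for 27 genes (52.9%, against 28.1% of all genes) and siControl replicate 1 for 21 (41.2%, against 27.2%). For the other 3 (5.88%, against 18.3%) it was siOrm replicate 2. Srp19, Srp68, Sec11a, Uggt1, Sec23b, Sec24d and Lman1 were over 0.3 higher on siControl replicate 2 than on siControl replicate 1. Markers of some other liver cell types were high on siControl replicate 2. It was the highest array for 12 of 13 macrophage markers, 7 of 9 stellate cell markers and 5 of 9 endothelial markers. Over all genes that share was 28.1%. Of 11 neutrophil markers, 4 were highest on siControl replicate 2 and 5 on siControl replicate 1. None of 8 B and plasma cell markers or 9 T and NK cell markers was highest on siControl replicate 2, where their medians were -0.165 and -0.143. For cholangiocyte markers the count was 1 of 4. Stellate cell markers had medians of -0.15 and 0.23 on the siOrm arrays and -0.28 and 0.48 on the siControl arrays. Endothelial markers had medians of 0.01 and -0.03 on the siOrm arrays and -0.15 and 0.24 on the siControl arrays. The neutrophil genes S100a8 and S100a9 stood at 2.75 and 1.95 on siControl replicate 2 and were separated downwards, with differences of -1.83 and -1.15. The rest of that list did not share this: the median of the 11 neutrophil markers on siControl replicate 2 was -0.01. Of the 11, 3 were separated downwards and 4 had a higher mean in siOrm livers. The part of any cell type in the values of the 7 genes named above was not tested. In the other direction, Srpr, Sec61a1, Calr, Pdia3, Sel1l and Derl2 were over 0.2 higher on siControl replicate 1.

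Other genes of the secretory pathway were compared in 5 lists, of which 4 had a larger share separated downwards than all genes and 1, the targeting and translocation genes, a smaller one. The ER chaperones and foldases under control of the unfolded protein response had a median difference of -0.60, with 12 of 15 separated downwards and 0 upwards, and 11 of 15 were lower at an unadjusted p under 0.05. In this list Sdf2l1 stood at -0.99 and -0.48 on the siOrm arrays and at 0.84 and 0.48 on the siControl arrays (difference -1.40, SE 0.22, limma adjusted p = 0.857). Manf differed by -1.14 and Hspa5, the main ER chaperone BiP, by -0.87.

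Of 31 other genes of N-glycan synthesis and trimming, 15 were separated downwards and 2 upwards, with a median difference of -0.10. Gmppb, which makes GDP-mannose, differed by -0.77, Krtcap2, a further subunit of oligosaccharyltransferase, by -0.43, and Dpagt1, which starts the lipid-linked glycan, by -0.36. Of 45 other genes of COPII, COPI and ER-Golgi transport, 19 were separated downwards and 3 upwards, with a median of -0.13. The cargo receptors Tmed3 and Tmed9 differed by -0.88 and -0.42, and the small GTPase Arf4 by -0.43.

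Of 21 other ERAD genes, 7 were separated downwards and 1 upwards, with a median of -0.04. Derl3, the third derlin, differed by -0.51, while Erlin1 and Ube2g2 differed by -0.28 and -0.25. The 17 other targeting and translocation genes, which include the ER membrane complex and the tail-anchored protein route, had a median of 0.05, with 1 separated downwards and 4 upwards. Tram1, which assists chains at the channel, differed by -0.27, and the membrane complex subunits Emc9 and Emc6 by 0.28 and 0.21. No gene of these 5 lists passed the adjusted test, with 17 of their 129 genes lower and 0 higher at an unadjusted p under 0.05, and differences between lists were not tested.

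**Figure D4:**
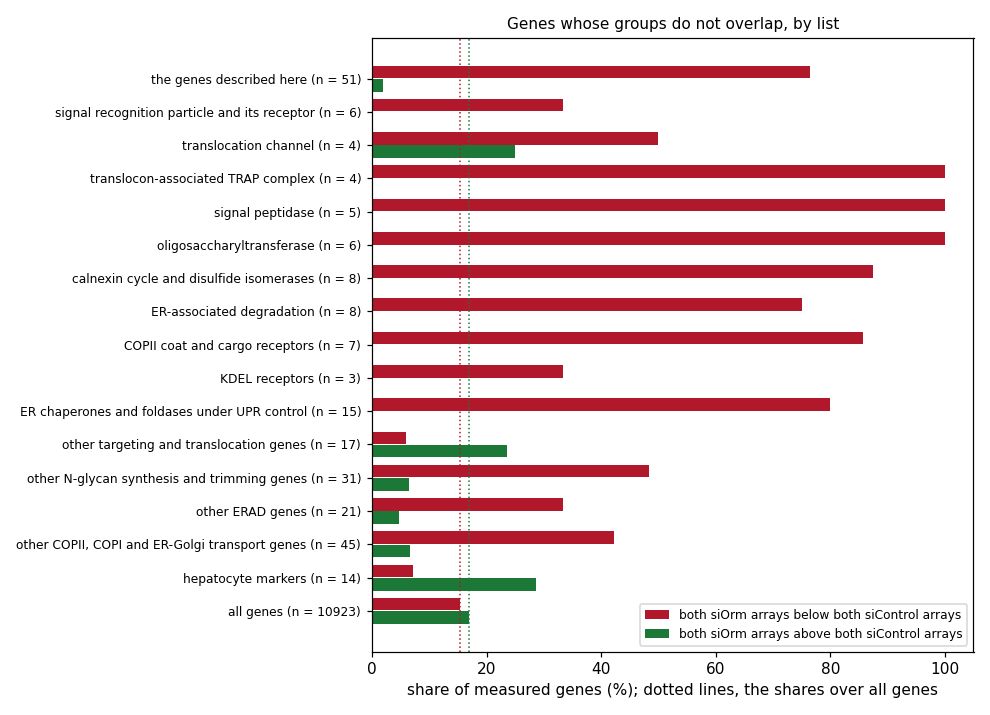
Share of measured genes, in percent, with each siOrm array below (red) or above (green) each siControl array, for the 51 genes, for each step, for other secretory pathway lists, for hepatocyte markers and for all genes. Dotted lines mark the shares over all genes, 15.3% and 17.0%; the TRAP complex, signal peptidase and oligosaccharyltransferase reach 100%, and the other targeting and translocation genes lie below the red line.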

How the data were processed

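Liver RNA was hybridised to 4 arrays of 1 colour, 2 siOrm and 2 siControl, grouped by their titles. The array is an Affymetrix one by the series text and probe set names, while the protocols in the labels give another maker's labelling and RNA from cultured cells; which laboratory steps were used is therefore unclear. The deposited table holds log2 signals of 18852 probe sets, centred by the authors on the median of the 4 arrays (largest row median 4.8e-07). How the arrays were normalized, and to which base the logarithm was taken, is not given in the sources used here; for natural logarithms the differences in log2 units would be 1.44 times as large. Centring makes the middle pair of the 4 values of a probe set mirror images, hides signal over background and allows no filter on low values. The number of arrays limits the precision.

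Probe sets with 1 symbol in the platform annotation (17209; 564 had several, 1044 were not listed and 35 were controls) were averaged per gene, giving 10923 genes. These were fitted with limma 3.58.1 in R 4.3.3 (lmFit, eBayes, constant prior with 3.60 degrees of freedom beside 2 residual ones), two-sided, with Benjamini-Hochberg adjustment over all genes at 0.05, after a check on simulated data. The genes and lists were chosen with earlier results of these data known. Array values were given for genes with an unadjusted p under 0.05, for the largest difference of each step and for Srp14. In other lists the 3 genes with the smallest p were named. Promoters with an ERSE, ERSE-II or UPRE were printed for at most 6 genes, by size of difference. A planned comparison of protein tails was not made. Alternatives were quantile normalization, array medians, probe set choice and summary, other variance priors, each array left out and a replicate block.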

Additional observations from a re-analysis of the deposited data

How the results depend on the processing

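The precision is limited by 2 arrays a group and by the missing signal levels, since neither dim nor saturated probe sets can be told in a centred table, so a filter on low values was not run. The median difference of the set was -0.24 after quantile normalization, -0.28 after subtraction of array medians, -0.31 over the 38 genes with probe sets that share no sequence by name and -0.26 with the median of probe sets. The number separated downwards was 40, 40, 26 of 38 and 38 in the same order. The share of all genes separated was not counted in these settings, so these counts stand without a background. The number separated upwards was 0 of 38 without probe sets that can share sequence. Srp19 stood at -0.24 after quantile normalization. With each array left out the median lay between -0.37 and -0.19, the number separated downwards between 41 and 46 and upwards between 1 and 3. The number past the adjusted test then lay between 0 and 1 in the set (lower), and between 0 and 183 lower and 0 and 46 higher among all genes; the nonzero counts came without siControl replicate 1. The variance prior with a trend called 8 genes lower and 3 higher, none of the set. That trend runs over centred means, which are no signal levels, so these calls carry little meaning.

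Replicate numbers were shared by the groups, but no label says that they pair the samples. The correlation over genes of replicate 1 minus replicate 2 between the groups was 0.13. With the replicate number as a block the median of the set was -0.27 and 0 genes passed. None of the 15 genes chosen by p or as the largest difference of their step changed sign in any alternative run. Of these, Calr, Erp29 and Rpn1 had no value without probe sets that can share sequence. Srp14, also given by array value, was not followed in these runs. Its siOrm mean of -0.002 lay above its value of -0.09 on siControl replicate 1, so its sign turns without siControl replicate 2.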
